A study of Homo sapiens with 12 samples.

Results

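The change in RNA levels that a methionine-free medium brings about in HEK293T cells was compared, gene by gene, with the change in R1 cells. HEK293T is a human embryonic kidney line transformed with adenovirus DNA and carrying the SV40 large T antigen, and it does not proliferate when methionine is replaced by its precursor homocysteine. R1 was isolated from HEK293T as 1 clone that does proliferate in that medium, so a property of R1 here is a property of this clone. All 12 libraries of the series entered the comparison, 3 in each of 4 groups: HEK293T in +Met medium, HEK293T in −Met+Hcy medium (methionine left out, homocysteine added), R1 in +Met and R1 in −Met+Hcy, each after 12 h. Neither source used here says whether the 3 libraries of a group came from separate cultures, so p-values measure the spread between these libraries only. The quantity followed throughout is the response of R1 (−Met+Hcy against +Met) minus the response of HEK293T, on the log2 scale. A negative value means that R1 went up less, or went down more, than HEK293T. It was computed for 17162 of the 23500 genes listed, with all 12 libraries, and for 17069 genes with 11 libraries, without R1 −Met+Hcy replicate 3.

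Methionine is an amino acid of proteins and the source of S-adenosylmethionine (SAM), the methyl donor of the cell. After the methyl group is passed on, homocysteine remains. It is either methylated back to methionine or enters transsulfuration, which makes cysteine and then glutathione. When amino acids run short, the kinase GCN2 phosphorylates the initiation factor eIF2, most translation slows, and the transcription factor ATF4 is translated and switches on genes for amino acid supply, redox balance and growth arrest, the programme known as the integrated stress response. A drop in SAM also stabilizes the RNA of MAT2A, the enzyme that makes SAM in most tissues.

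The libraries held 12664158 to 18771349 counts. R1 −Met+Hcy replicate 3 stood apart from its group: the rank correlation across 11043 genes between its deviation from the group and the GC content of the transcript was -0.744, while those of the other 11 libraries lay between -0.339 and 0.538. The common dispersion of the counts was 0.109 with it and 0.0349 without it, and the median standard error of the difference was 0.48 and 0.326. It nevertheless carried the line's own genes. The 68 genes that were much higher in R1 than in HEK293T summed to 2366 CPM (counts relative to a library's total) in it, to 2706 to 2962 CPM in the other R1 libraries and to 135 to 271 CPM in HEK293T. The 13 genes much lower in R1 summed to 107.9 CPM in it, to 22.5 to 74.7 CPM in the other R1 libraries and to 321 to 538 CPM in HEK293T. Results are given below without it first, where R1 −Met+Hcy has 2 libraries, and for some genes also with it. Only 8 genes were called for the difference with all 12 libraries. A gene given with 1 adjusted p only has that of the 11 libraries, and was not called with 12. Levels are CPM scaled by the TMM method, and the 3 values of a group are always given in the order of replicates 1, 2 and 3.

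ATF4 binds, with a C/EBP partner, a composite element whose core letters are TGATGNAA. These letters were searched on both strands in the 250 bases before each RefSeq transcription start (GRCh38.p14), and the matches in genes described below are printed here to show the letters and what surrounds them. These genes were picked for holding a match, so that they share one is fixed by the choice. Capitals mark the match, given with 30 bases on each side as far as the window reaches, 5′ to 3′ on the strand of the gene.
CHAC1: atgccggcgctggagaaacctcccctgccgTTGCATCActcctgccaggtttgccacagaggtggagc
CEBPG: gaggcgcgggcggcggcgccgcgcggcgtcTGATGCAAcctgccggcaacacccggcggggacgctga
ASNS: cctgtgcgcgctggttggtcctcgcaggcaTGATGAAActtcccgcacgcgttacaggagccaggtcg
ATF3: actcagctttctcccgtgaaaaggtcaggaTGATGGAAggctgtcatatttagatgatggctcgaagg
FGF21: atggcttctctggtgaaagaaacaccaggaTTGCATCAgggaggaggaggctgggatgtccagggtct
AJUBA: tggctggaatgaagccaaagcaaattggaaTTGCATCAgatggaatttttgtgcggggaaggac
The stretches lie at chr15:40953232-40953299 (plus strand), chr19:33374041-33374108 (plus), chr7:97872439-97872506 (minus), chr1:212565186-212565253 (plus), chr19:48755440-48755507 (plus) and chr14:22976843-22976906 (minus). CHAC1, FGF21 and AJUBA carry the letters in the reverse orientation, TTNCATCA, and 3 of the 6 genes, CHAC1, FGF21 and AJUBA, hold the identical 8 letters TTGCATCA. A match was found in 4 of the 18 integrated stress response regulators that have a window (22.2%) and in 2.72% of the 12367 tested genes with one. Of the 139 genes with a window that were called lower in R1 with 11 libraries, 6 held a match (4.32%), and of the 37 called higher, 0. A match is a run of letters, and its absence says nothing of the factor: neither SESN2 nor CTH, described below, had one in this window.

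With 11 libraries, 184 of the 17069 genes tested were called lower for the difference (1.08%) and 52 higher (0.305%) by edgeR's quasi-likelihood test at a Benjamini-Hochberg adjusted p under 0.05 and an absolute log2 difference over 1. With all 12 libraries, 10 entries of 8 genes were called lower (0.0583%) and 0 higher (0%). At an unadjusted p under 0.05, 866 were then lower and 793 higher, and DESeq2 on the same 12 libraries called 123 lower and 67 higher. All 10 entries called with 12 libraries were among the 236 called with 11, and all 236 had the same sign of the difference in both fits. The HEK293T response itself had 1154 genes called higher (6.76%) and 608 lower (3.56%) with 11 libraries, and the R1 response 3 higher (0.0176%) and 0 lower (0%). At an unadjusted p under 0.05, 766 genes were higher and 439 lower in R1. DESeq2 on the 11 libraries called 319 lower and 169 higher for the difference.

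Most of the called differences were responses of HEK293T that were smaller in R1 with the same sign, and the others had the opposite sign in R1. With 1 entry kept per gene symbol, that with the highest summed count, 226 genes were called with 11 libraries. In 117 of them HEK293T was higher in −Met+Hcy and the R1 estimate had the same sign and was smaller, and in 40 the same held for a lower HEK293T level. The R1 response itself had an unadjusted p under 0.05 in 40 of the 117 and in 14 of the 40 and did not reach it in the others. In 60 the sign in R1 was opposite to an upward HEK293T response, and in 9 to a downward one. In 3 of these 69 each line's own response reached an unadjusted p under 0.05. No called gene responded in the same direction by more in R1 than in HEK293T. Of the 1078 gene symbols called higher in HEK293T, 930 had a positive R1 response, with a median of 1.501 in HEK293T and 0.39 in R1 on the log2 scale. Of the 539 called lower, 491 had a negative R1 response, with medians of -1.29 and -0.31. These medians share the selection on HEK293T, which by itself favours a larger value there.

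A response that is equal in both lines was looked for by the 95% interval of the difference. The interval lay within 1 on the log2 scale on either side of 0 for 41.6% of all genes with 11 libraries and for 19.7% with 12. Among the genes called in HEK293T with 11 libraries, it did so for 16 of the 1078 that went up and 5 of the 539 that went down. For 162 and 47 of them the difference was called, and for the rest, 900 and 487, the interval reached past 1 and the difference was not called, so neither equality nor a difference was measured for most of the HEK293T response.

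**Figure D1:**
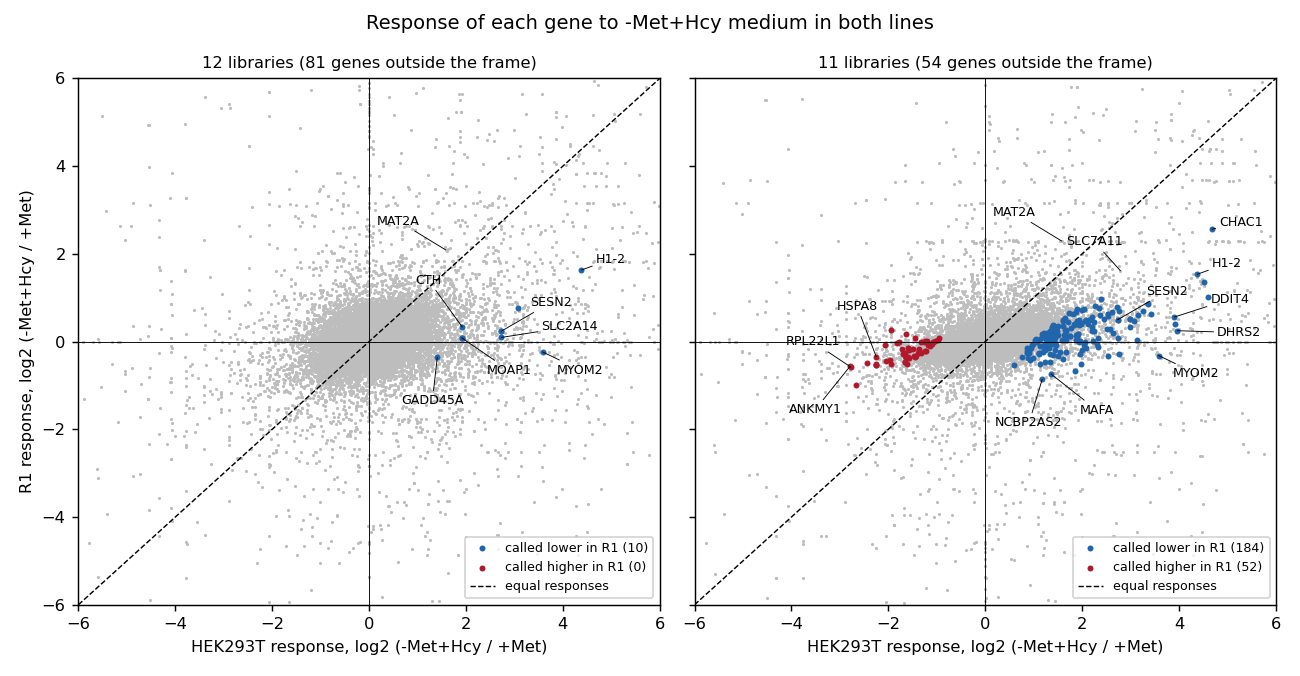
Response of each gene in R1 (vertical axis, log2 of −Met+Hcy over +Met) against its response in HEK293T (horizontal axis, same unit), with 12 libraries on the left and 11 on the right; blue and red points are genes called lower or higher for the difference, and the dashed line marks equal responses. The 184 blue and 52 red points on the right lie between the horizontal axis and the dashed line or just across the axis, and none lies beyond the dashed line, away from the axis.

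The functions were described with 37 gene lists. Over all genes the median difference was -0.017 on the log2 scale with 11 libraries. The lists with the lowest median difference were the linker histones (-2.497), the replication-dependent core histones (-1.33), the integrated stress response regulators (-0.73) and the immediate early genes (-0.68). The highest medians were those of cytosolic ribosomal proteins (0.74), the CCT chaperonin and prefoldin (0.51), the proteasome (0.51) and the nuclear genes of the respiratory chain (0.45). In each of these 8 lists the HEK293T median was farther from 0 than the R1 median. The secreted stress factors are left out of this order, since their median difference is the fitted value of INHBE, which had 0 to 3 counts in each R1 library. When a symbol counts as called if any of its entries was, 178 were called lower and 51 higher, and 28 and 11 of these were in a list. The lists hold 856 of the 17069 genes tested. They were chosen with earlier results of these data known, so these counts do not measure whether the listed functions hold more calls. Over all genes, 6.76% were called higher and 3.56% lower in HEK293T with 11 libraries, and 0.0176% and 0% in R1. A list of this size would therefore hold few or no R1 calls in any case.

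**Figure D2:**
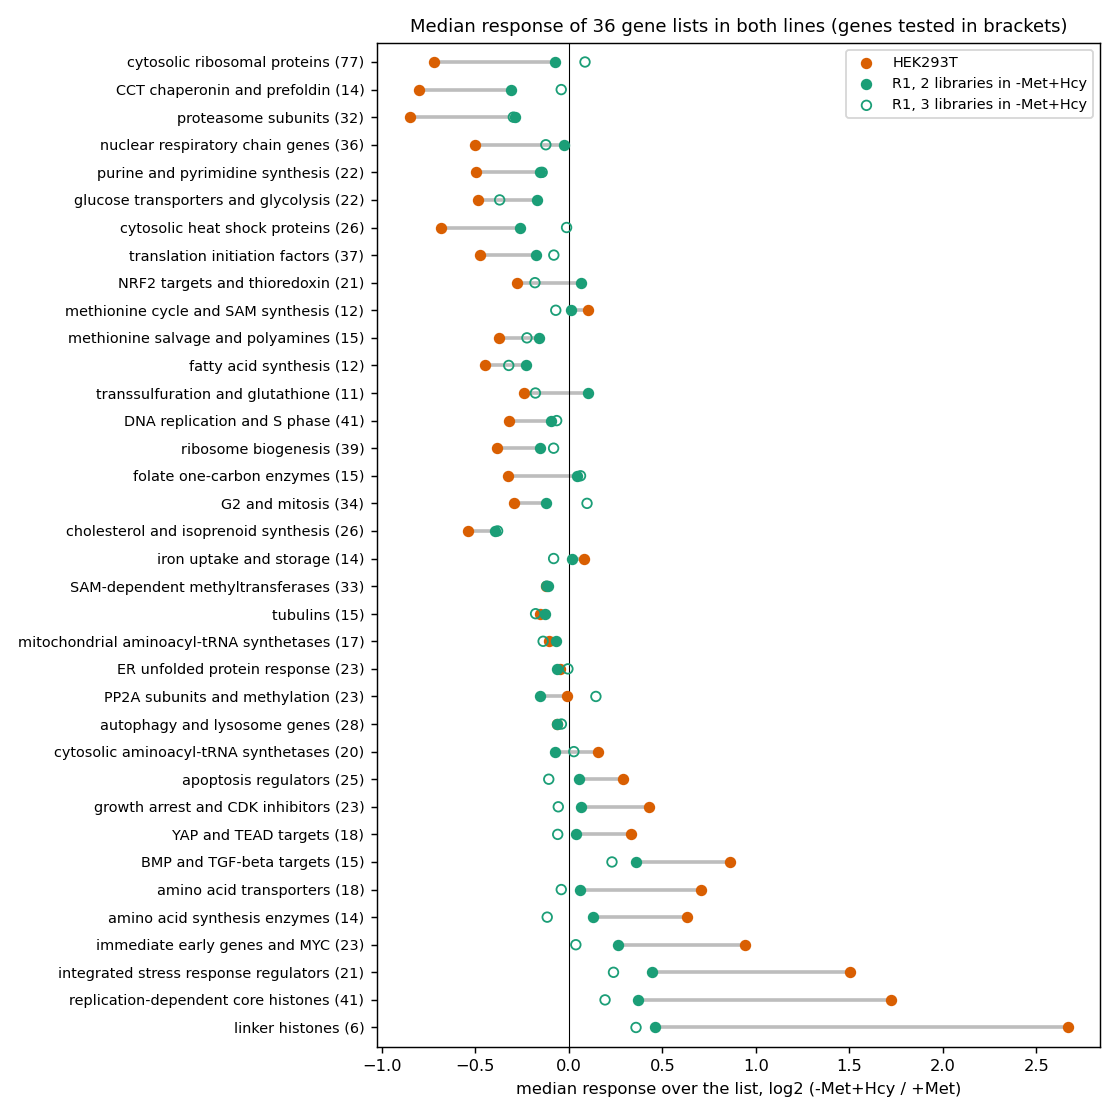
Median response (log2 of −Met+Hcy over +Met) of each of 36 gene lists in HEK293T and in R1, the secreted stress factors left out, with R1 given without (filled) and with (open) R1 −Met+Hcy replicate 3; lists are ordered by the median difference with 11 libraries and the number of genes tested stands in brackets. At both ends the HEK293T points lie far from 0 and the R1 points near it, and from SAM-dependent methyltransferases to autophagy and lysosome genes the points of the lines lie close together.

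Regulators of the integrated stress response went up in HEK293T and by less, or not measurably, in R1. Of the 21 tested, 14 were called higher in HEK293T, 1 in R1 (CHAC1) and 9 were called lower for the difference with 11 libraries, 1 with 12. The median response was 1.51 in HEK293T and 0.44 in R1, and 20 of the 21 differences were negative. The median deviation of the list from the line's own +Met level was 1.52, 1.49 and 1.41 in the 3 HEK293T −Met+Hcy libraries and 0.33, 0.37 and -0.3986 in those of R1. The HEK293T libraries were alike, whereas R1 replicate 3 lay below its +Met level and the other pair above it.

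SESN2 (ENSG00000130766, chromosome 1 of GRCh38 from 28259518 to 28282491) encodes sestrin 2, a leucine sensor that restrains the growth kinase mTORC1. Its level in HEK293T was 11.4, 14.9 and 13.8 CPM in +Met and 99.01, 87.7 and 80.2 CPM in −Met+Hcy. In R1 it was 21.97, 19.2 and 19.6 CPM and 23.8, 33.4 and 14.6 CPM. The HEK293T media were far apart, and the R1 media overlapped only through replicate 3. The difference was -2.23 (standard error 0.243, 95% interval -2.76 to -1.71, edgeR adjusted p = 0.00204) with 11 libraries and -2.49 (edgeR adjusted p = 0.046) with 12. DDIT4, whose product REDD1 also restrains mTORC1, went from 45.9, 38.3 and 45.1 to 596, 666 and 677 CPM in HEK293T. Its R1 levels were 73.8, 82.01 and 56.1 CPM in +Met and 116, 92.7 and 5.67 CPM in −Met+Hcy, with replicate 3 far below all others. The difference was -3.35 (standard error 0.254, 95% interval -3.898 to -2.79, edgeR adjusted p = 0.000114) with 11 libraries, and with 12 it was -3.89 and not called (edgeR adjusted p = 0.235).

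CHAC1, which degrades glutathione, was 1 of the 3 genes called in R1. It rose from 8.39, 6.21 and 5.805 to 157, 168 and 199 CPM in HEK293T. In R1 the +Met libraries had 3.92, 3.88 and 3.94 CPM, and the −Met+Hcy libraries had 22.1 and 24.2 CPM in replicates 1 and 2 and 4.47 CPM in replicate 3. The response was 4.68 in HEK293T and 2.56 in R1 without replicate 3, and the difference -2.12 (standard error 0.242, 95% interval -2.65 to -1.59, edgeR adjusted p = 0.00208). VLDLR, a lipoprotein receptor, had 5.897, 4.97 and 5.07 CPM in +Met and 17.1, 15.1 and 18.5 CPM in −Met+Hcy in HEK293T, and 16.7, 10.8 and 15.3 and 11.2, 12.9 and 12.9 CPM in R1. In +Met every R1 library was above every HEK293T library, and the R1 media overlapped. Its difference was -1.91 (standard error 0.273, 95% interval -2.502 to -1.31, edgeR adjusted p = 0.00639).

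The other called members were transcription factors and effectors. ATF3, a repressor induced by stress, had a difference of -1.93 (edgeR adjusted p = 0.0208), CEBPG, a partner of ATF4, -1.27 (0.0152), STC2, a secreted glycoprotein, -1.503 (0.0215), RHBDD1, a rhomboid protease, -1.48 (0.00856) and TRIB3, a pseudokinase that restrains ATF4, -1.07 (0.0423). CEBPG had 27.6, 35.7 and 28.1 and 118, 127 and 119 CPM in HEK293T and 15.2, 11.96 and 15.3 and 23.98, 22.9 and 24.7 CPM in R1, so the R1 media did not overlap. Leaving out 1 more library in turn, CHAC1, DDIT4, SESN2 and VLDLR were called every time, and the other 5 were lost without R1 −Met+Hcy replicate 2 and up to 8 other libraries, with differences that stayed negative. ATF4 itself, named here after its values were seen, did not take part in the pattern: its RNA response was 0.34 in HEK293T and 0.35 in R1, with a 95% interval of the difference from -0.45 to 0.47. NUPR1, a small stress-induced chromatin protein, had 7, 5 and 18 counts in HEK293T +Met and 185, 278 and 192 in −Met+Hcy, and in R1 0, 0 and 1 against 8, 4 and 18. Its counts in R1 are too low for a difference to be measured.

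The secreted factors FGF21 and INHBE, of the same programme, rose in HEK293T and had 0 to 3 counts in every R1 library. FGF21 is a hormone that liver and other tissues release under nutrient stress. HEK293T gave 0 counts of it in every +Met library. The −Met+Hcy libraries of HEK293T gave 82, 106 and 122 counts, which is at least 85.5-fold higher when set against a floor of 3 counts over the whole +Met group. It had 0 counts in all 6 R1 libraries, so no fold can be given for R1. INHBE, an inhibin beta subunit, had 3, 1 and 1 counts in HEK293T +Met and 93, 113 and 82 in −Met+Hcy, against 2, 0 and 0 and then 3, 0 and 0 in R1. Neither gene's difference was called by edgeR, which has little to compare where a group is at 0, and DESeq2 called FGF21. The list had 4 of 5 genes called higher in HEK293T, 0 in R1, and 0 called for the difference.

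**Figure D3:**
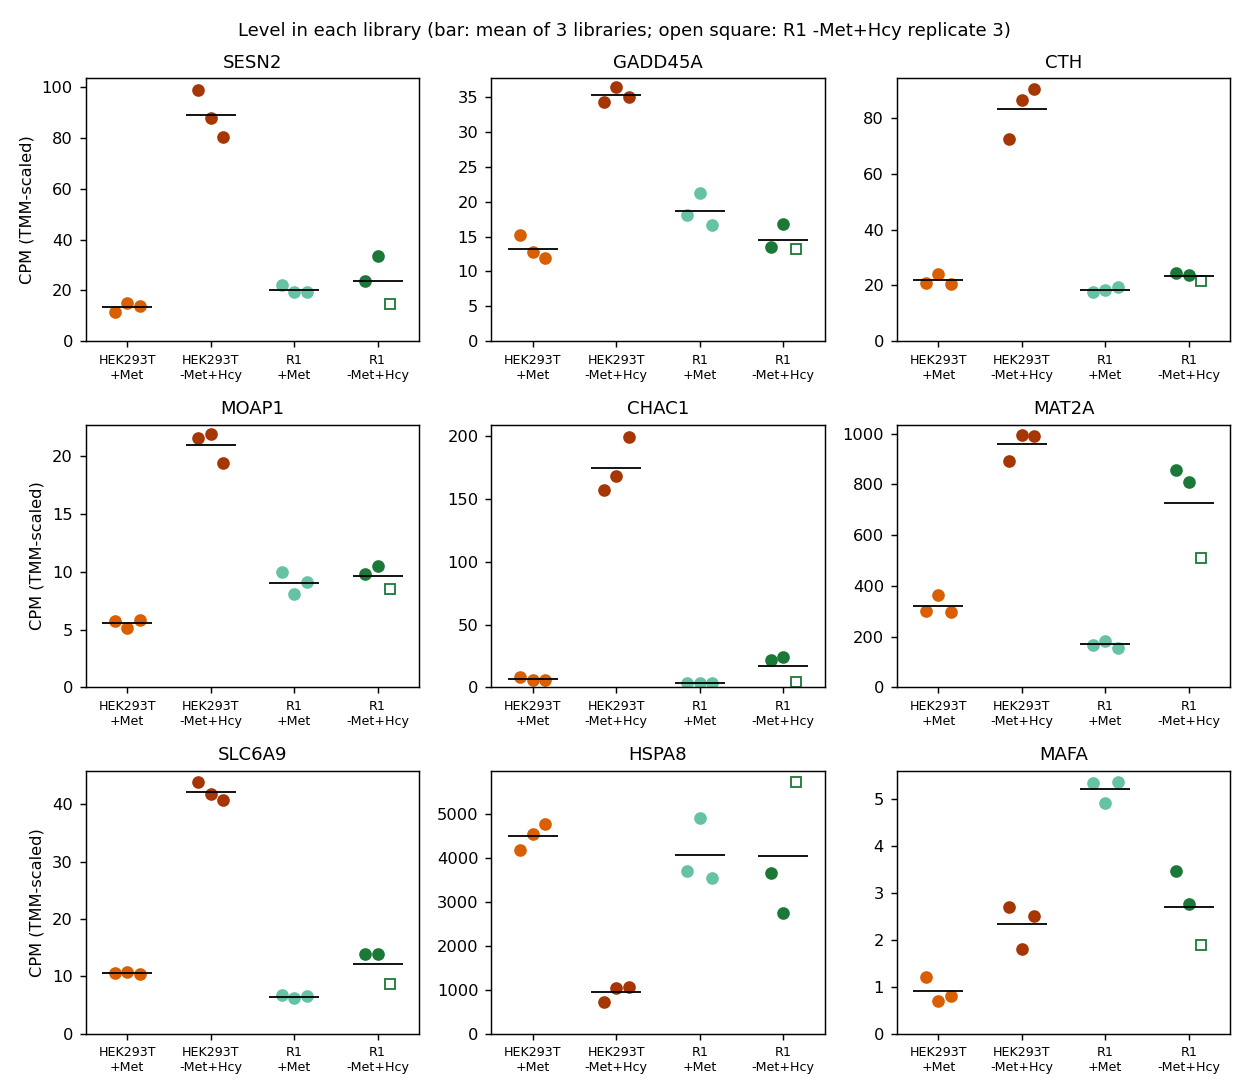
Level of 9 genes in each of the 12 libraries (CPM, linear axes from 0), with a bar at the mean of 3 libraries and an open square for R1 −Met+Hcy replicate 3. SESN2, GADD45A, CTH and MOAP1 separate the HEK293T media widely and those of R1 little or not, MAT2A and SLC6A9 separate the media in both lines, HSPA8 is low in HEK293T −Met+Hcy, and MAFA moves in opposite directions.

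The methionine cycle and its branches gave responses of each kind. CTH (ENSG00000116761, chromosome 1 of GRCh38 from 70411218 to 70439851), cystathionine gamma-lyase, the last step of transsulfuration, had 21.02, 24 and 20.6 CPM in HEK293T +Met and 72.7, 86.4 and 90.6 CPM in −Met+Hcy. In R1 it had 17.6, 18.5 and 19.5 CPM and 24.5, 23.6 and 21.8 CPM. Its R1 media did not overlap, but they lay close together, and R1 replicate 3 lay with its group. The difference was -1.55 (standard error 0.193, 95% interval -1.97 to -1.13, edgeR adjusted p = 0.00291) with 11 libraries and -1.596 (edgeR adjusted p = 0.046) with 12. SLC7A11, the cystine importer that feeds glutathione synthesis, went from 12.8, 30.2 and 21.97 to 148, 153 and 149 CPM in HEK293T and from 7.84, 7.66 and 7.09 to 23.7, 22.5 and 17.5 CPM in R1. Both lines' media were apart, and the difference of -1.18 was not called (95% interval -1.93 to -0.42, edgeR adjusted p = 0.106). GCLM, the regulatory subunit of glutathione synthesis, was lower in −Met+Hcy in both, at -0.95 in HEK293T and -0.46 in R1, with a difference of 0.49 (edgeR adjusted p = 0.265). Of the 11 genes of transsulfuration and glutathione, CTH alone was called for the difference.

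MAT2A (ENSG00000168906, chromosome 2 of GRCh38 from 85539168 to 85545281) shared with CHAC1 the smallest adjusted p in R1. It had 300.4, 366 and 297 CPM in HEK293T +Met and 892, 993 and 992 CPM in −Met+Hcy. R1 started lower, at 168, 185 and 157 CPM, and reached 858 and 808 CPM in replicates 1 and 2 and 510.2 CPM in replicate 3. The response was 1.58 in HEK293T and 2.29 in R1 on the log2 scale, the difference 0.71 with a 95% interval of 0.28 to 1.15, and it was not called (edgeR adjusted p = 0.0948). With 12 libraries it was 0.51 (edgeR adjusted p = 0.584). In −Met+Hcy the R1 levels stayed below every HEK293T level, and in +Met they lay below every HEK293T level too. METTL16, the methyltransferase that reads SAM and controls MAT2A RNA, responded by 0.85 in HEK293T and 0.32 in R1 (difference -0.54, edgeR adjusted p = 0.156). Of the 12 tested genes of the cycle, 0 were called for the difference, and 3 had an unadjusted p under 0.05.

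Methionine salvage and polyamine synthesis held 1 gene called in each direction. PAOX, which breaks down acetylated polyamines, had 0.983, 1.09 and 0.955 CPM and 3.42, 2.54 and 3.25 CPM in HEK293T against 8.52, 10.6 and 11.7 and 8.52, 6.95 and 0 CPM in R1, a difference of -2.003 (standard error 0.32, 95% interval -2.7 to -1.31, edgeR adjusted p = 0.0113). The 0 in R1 replicate 3 belongs to a transcript of 63.0% GC. SMS, spermine synthase, had 189.5, 181 and 186 CPM and 74.2, 79.9 and 81.4 CPM in HEK293T and 133, 152 and 142 and 123, 122 and 238 CPM in R1, a difference of 1.03 (standard error 0.169, 95% interval 0.66 to 1.39, edgeR adjusted p = 0.013). SMS fell in HEK293T to below every R1 library, and in R1 replicates 1 and 2 lay just below the +Met level and replicate 3 above it. Both calls were lost without R1 −Met+Hcy replicate 2, SMS also without 5 other libraries. The 15 folate one-carbon enzymes had a median difference of 0.16 and 0 calls. The largest HEK293T responses among members with at least 5 CPM in a group were those of MTHFD2L (1.03, 0.034 in R1) and SHMT2 (0.82, 0.16 in R1).

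Genes of amino acid supply were called for part of the members in HEK293T and for few in the difference. Of 18 amino acid transporters, 4 were called higher in HEK293T, 1 in R1 (SLC6A9) and 1 lower for the difference. Over all genes the shares were 6.76%, 0.0176% and 1.08%. SLC6A9, a glycine transporter, had 10.5, 10.8 and 10.4 and 43.9, 41.7 and 40.8 CPM in HEK293T and 6.67, 6.16 and 6.52 and 13.8, 13.9 and 8.65 CPM in R1. It rose in both lines, by 1.99 and 1.104, and its difference of -0.89 passed the adjusted p (edgeR adjusted p = 0.0293) but not the fold. SLC1A4, a transporter of neutral amino acids, was the called one, with 3.1, 2.25 and 2.72 and 8.72, 9.21 and 7.42 CPM in HEK293T and 14.7, 12.1 and 13.5 and 11.1, 16.97 and 5.55 CPM in R1 (difference -1.58, edgeR adjusted p = 0.0232, lost without any 1 of 5 libraries). In +Met R1 was above HEK293T, and R1 −Met+Hcy replicate 3 lay below the HEK293T −Met+Hcy libraries. Of 14 amino acid synthesis enzymes 1 was called, GPT2, which makes alanine (-1.07, edgeR adjusted p = 0.0411, lost without any 1 of 9 libraries). ASNS, asparagine synthetase, had a difference of -0.72 and PSAT1, an enzyme of serine synthesis, -0.87 (edgeR adjusted p = 0.258 and 0.178). Of the tRNA synthetases, which charge tRNAs, 0 of 20 cytosolic and 0 of 17 mitochondrial ones were called for the difference. Within these lists, CARS1 responded by 1.07 in HEK293T and 0.33 in R1, VARS1 by -1.41 and -0.68, PARS2 by 1.45 and 0.6002, and SARS2 by -0.91 and -0.09993.

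Of 23 genes of growth arrest 8 were called higher in HEK293T, and of 25 apoptosis genes 5, against 6.76% of all genes. In R1 0 of either list were called, where 0.0176% of all genes were called higher, so this 0 is not particular to these lists. GADD45A (ENSG00000116717, chromosome 1 of GRCh38 from 67685201 to 67688334), which binds PCNA and stress kinases, had 15.2, 12.7 and 11.9 CPM and 34.2, 36.4 and 35.1 CPM in HEK293T. In R1 it had 18.1, 21.2 and 16.7 CPM in +Met and 13.6, 16.9 and 13.3 CPM in −Met+Hcy. HEK293T went up, and the R1 means went the other way without a call. The difference was -1.703 (standard error 0.224, 95% interval -2.19 to -1.22, edgeR adjusted p = 0.00394) with 11 libraries and -1.76 (edgeR adjusted p = 0.046) with 12. MOAP1 (ENSG00000165943, chromosome 14 of GRCh38 from 93182199 to 93184923), a BH3-like protein that activates BAX, had 5.75, 5.13 and 5.805 and 21.5, 21.9 and 19.4 CPM in HEK293T and 10.01, 8.08 and 9.096 and 9.83, 10.5 and 8.53 CPM in R1. Its R1 media overlapped, and the difference was -1.75 (standard error 0.214, 95% interval -2.21 to -1.28, edgeR adjusted p = 0.00285) with 11 and -1.82 (edgeR adjusted p = 0.046) with 12 libraries.

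GADD45B was also called (-1.46, edgeR adjusted p = 0.0338, lost without any 1 of 8 libraries), and so was BID, a BH3 protein that was lower in HEK293T −Met+Hcy and not in R1 replicates 1 and 2 (1.01, edgeR adjusted p = 0.0425, lost without any 1 of 9). BTG1, an antiproliferative factor, rose by 1.44 in HEK293T with 0.51 in R1, and its difference of -0.92 passed the adjusted p only (edgeR, 0.0251). CDKN2B, a CDK4 inhibitor, and PMAIP1, the BH3 protein NOXA, had differences of -1.16 and -0.91 that were not called. Of 23 arrest genes 2 were called for the difference, and of 25 apoptosis genes 1 in each direction. Of 41 genes of DNA replication and S phase, 31 had a 95% interval of the difference within 1, and of 34 genes of G2 and mitosis 24, against 41.6% of all genes. With 12 libraries these fell to 19 and 10, against 19.7%, and 0 were called for the difference in either list. The share over all genes takes in genes of low counts, whose intervals are wide, and was not matched for level. A higher share in a list is therefore not by itself a more equal response. The genes named here had the largest HEK293T responses of these lists, among members with at least 5 CPM in a group. They were not picked as alike. They are FEN1, a replication nuclease (1.001 in HEK293T, 0.41 in R1), CCNE2, cyclin E2 (-1.28 and -0.3001), CKS2 (-1.42 and -0.26) and PTTG1, securin (-1.099 and -0.2954).

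Some histone genes were called several times higher in HEK293T, and none was called in R1. Histone RNA of the S phase type, core or linker, lacks a poly(A) tail, and family members are so alike that the counting could split their reads. Of 6 linker histone genes tested, 5 were called higher in HEK293T, 0 in R1, and 3 lower for the difference. H1-2 had 4.76, 3.96 and 7.05 and 89, 108 and 133 CPM in HEK293T and 5.98, 3.94 and 4.66 and 17.04, 11.3 and 16.9 CPM in R1, a difference of -2.85 (standard error 0.377, 95% interval -3.67 to -2.02, edgeR adjusted p = 0.00409) and -2.75 (edgeR adjusted p = 0.046) with 12 libraries. The R1 media of H1-2 did not overlap, with −Met+Hcy above +Met. H1-10 had 148, 114 and 138 and 593, 653 and 659.6 CPM in HEK293T and 165, 154 and 150.4 and 222, 203 and 27.4 CPM in R1, with replicate 3 far below the +Met level, and a difference of -1.81 (edgeR adjusted p = 0.00204) with 11 libraries that was not called with 12 (0.339). Both calls stood with any 1 further library left out.

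Of 41 core histone genes tested, 18 were called higher in HEK293T, 0 in R1, and 3 lower for the difference. H2AC6 had 0.605, 0.621 and 1.69 and 20.7, 26.6 and 24.1 CPM in HEK293T and 2.06, 3.52 and 1.504 and 6.68, 3.12 and 6.36 CPM in R1, a difference of -3.57 (edgeR adjusted p = 0.0145). H2AC18 and H2BC5 had differences of -2.46 and -2.07 (edgeR adjusted p = 0.0145 and 0.00485), and all 3 were lost without R1 −Met+Hcy replicate 2. H3C10 had 0, 1 and 6 counts in HEK293T +Met and 94, 105 and 90 in −Met+Hcy, against 3, 1 and 5 and then 1, 6 and 0 in R1. The list's median deviation was 1.03, 1.395 and 1.32 in the HEK293T −Met+Hcy libraries and 0.6025, 0.05 and -0.65 in those of R1, so the R1 libraries disagreed among themselves. Intervals in this list were wide, and 0 of the 41 genes had an interval of the difference within 1.

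Immediate early genes, which transcription switches on within minutes of a signal, had 6 of 23 called higher in HEK293T and 3 lower for the difference. Over all genes the shares were 6.76% and 1.08%. KLF10, a repressor induced by TGF-beta, had 22.4, 25.3 and 26.2 and 104, 109 and 108 CPM in HEK293T and 21.6, 22.2 and 26.3 and 29.8, 32.2 and 60.3 CPM in R1, a difference of -1.703 (standard error 0.188, 95% interval -2.11 to -1.29, edgeR adjusted p = 0.00204). JUN, a subunit of AP-1, had 154, 152 and 135 and 317, 285 and 259.9 CPM against 64.6, 50.7 and 65.2 and 55.8, 57.8 and 63.5 CPM, and its R1 media overlapped (difference -1.05, edgeR adjusted p = 0.0299, lost without any 1 of 8 libraries). ATF3 is the third. Targets of YAP and TEAD, the factors of the Hippo pathway, had 1 call of 18: AJUBA, with 11.3, 12.3 and 8.38 and 29.6, 27.4 and 25.6 CPM in HEK293T and 26.4, 19.99 and 27 and 19.7, 27.5 and 10.1 CPM in R1 (-1.42, edgeR adjusted p = 0.0283, lost without any 1 of 6). LATS2, a kinase of the pathway, had a difference of -1.02 (edgeR adjusted p = 0.0565). ANKRD1 responded by 2.42 in HEK293T and 2.002 in R1, with a wide interval of -1.99 to 1.16. Targets of BMP and TGF-beta had 5 of 15 called higher in HEK293T, against 6.76% of all genes, and 0 called for the difference. BMP4, itself a ligand, responded by 1.199 and 0.43, a difference of -0.77 (edgeR adjusted p = 0.0722).

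**Figure D4:**
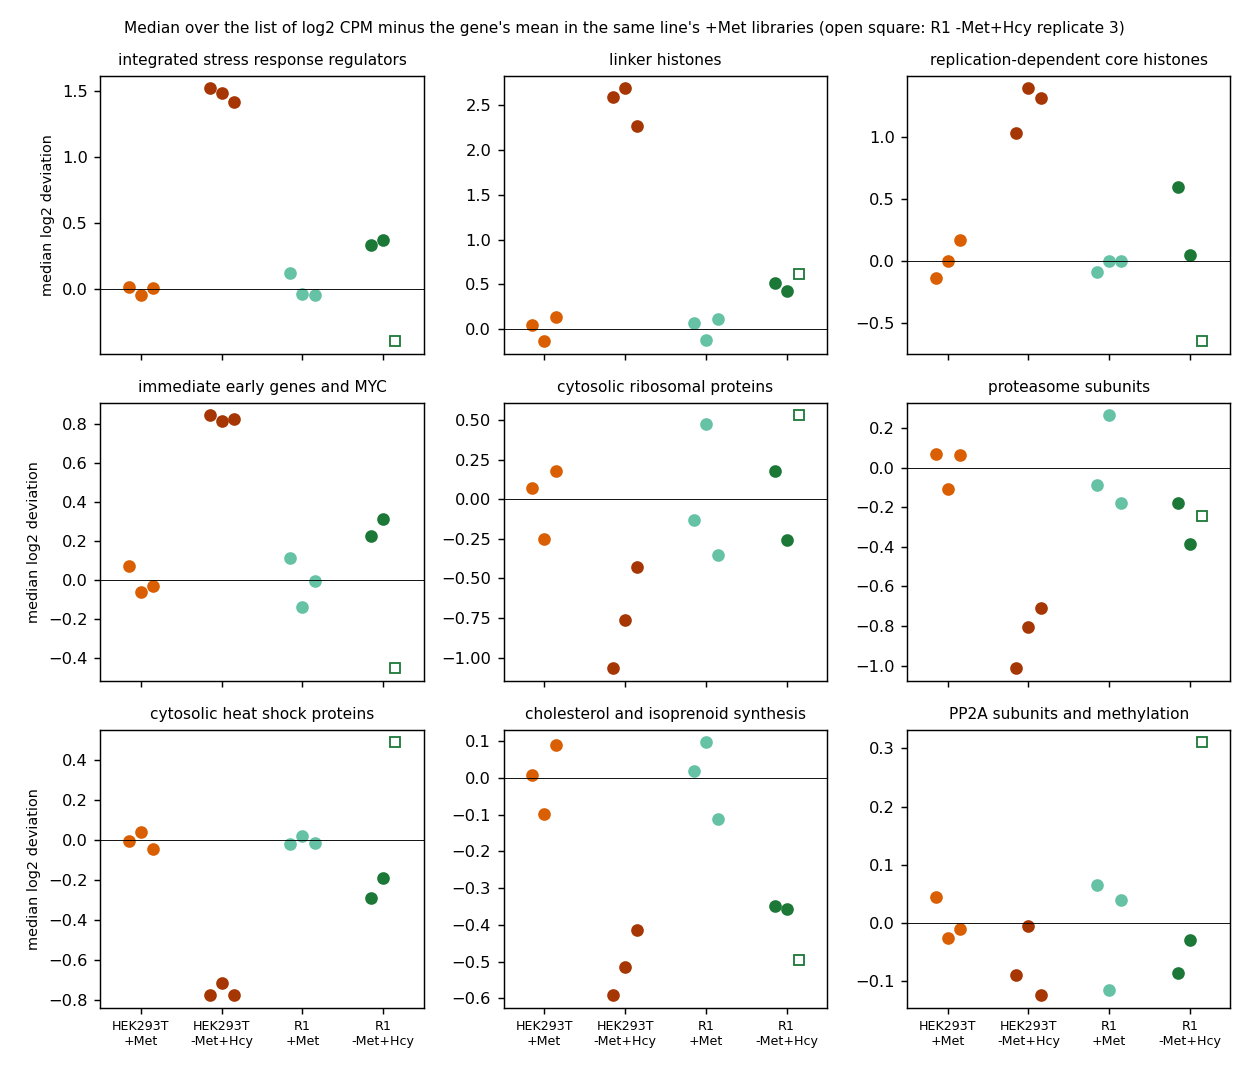
Median over each of 9 gene lists of the log2 CPM of a library minus the gene's mean in the +Met libraries of the same line, for the 12 libraries in their 4 groups; the open square is R1 −Met+Hcy replicate 3. Integrated stress response, histone and immediate early genes are raised and ribosomal, proteasome and heat shock genes lowered in the 3 HEK293T −Met+Hcy libraries, cholesterol synthesis is lower in all 6 −Met+Hcy libraries, and the open square lies apart from its group in several lists.

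Cytosolic ribosomal proteins, the protein part of the translation machinery, had negative responses in HEK293T and values near 0 in R1. Of 77 genes, 76 had a negative response in HEK293T (18 called) and 55 in R1 (0 called), and all 77 differences were positive with 11 libraries, 72 with 12. The median response was -0.72 in HEK293T and -0.073 in R1. Only 3 differences were called, and these genes move together within a library: the median deviation was -1.07, -0.76 and -0.43 in HEK293T −Met+Hcy, -0.13, 0.47 and -0.35 in R1 +Met and 0.18, -0.26 and 0.53 in R1 −Met+Hcy. The R1 +Met libraries thus were spread more widely than the size of the median HEK293T response. The 2 R1 libraries with the highest ribosomal level, +Met replicate 2 and −Met+Hcy replicate 3, also had the lowest correlations of their deviations with GC content among the R1 libraries (-0.339 and -0.744), and the part of this in the result was not tested.

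RPL7 had 2269, 2109 and 2376 CPM in HEK293T +Met and 672, 773 and 842 CPM in −Met+Hcy, and 979.6, 1304 and 937 and 985, 906 and 1516 CPM in R1. All 6 R1 libraries lay between the HEK293T groups, and the difference was 1.38 (standard error 0.235, 95% interval 0.87 to 1.89, edgeR adjusted p = 0.0152). RPL23 and RPL22L1 had differences of 1.13 and 2.19 (edgeR adjusted p = 0.0272 and 0.0412), and RPL26, which was not called, 1.499 (edgeR adjusted p = 0.0965). The 3 calls were each lost without any 1 of 5 to 10 further libraries, and without R1 +Met replicate 2 the number of all genes called higher went from 52 to 259. Other lists of protein synthesis gave 0 calls. In 39 ribosome biogenesis genes the median difference was 0.19, with NPM1 at 1.12 and EBNA1BP2 at 0.92, and in 37 initiation factors 0.33, with EIF3E at 1.39 and EIF3H at 0.88.

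Protein folding and turnover followed the same direction. Of 26 cytosolic heat shock genes, 8 were called lower in HEK293T, 0 in R1, and 2 higher for the difference. HSPA8, the constitutive HSP70, had 4184, 4547 and 4783 CPM in HEK293T +Met and 734, 1036 and 1069 CPM in −Met+Hcy. In R1 it had 3709, 4927 and 3561 CPM and 3670, 2755 and 5742 CPM. The R1 media overlapped and no R1 library came near the low HEK293T group. The difference was 1.91 (standard error 0.286, 95% interval 1.29 to 2.53, edgeR adjusted p = 0.00856), and 2.25 (edgeR adjusted p = 0.085) with 12 libraries. HSPA4, an exchange factor of HSP70, had 639.5, 675 and 620.1 and 201, 224 and 214 CPM in HEK293T and 466, 564 and 514 and 389, 414 and 714 CPM in R1 (difference 1.24, edgeR adjusted p = 0.00856, lost without R1 −Met+Hcy replicate 2). HSPA1B, an inducible HSP70 with a near-identical copy, HSPA1A, responded by -1.997 and -0.57 and was not called (edgeR adjusted p = 0.0801).

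All 32 proteasome subunits had a negative response in HEK293T (7 called) and all 32 in R1 (0 called), and all 32 differences were positive with 11 libraries, 30 with 12, with 0 called. The medians were -0.85 in HEK293T and -0.29 in R1. These genes also move together within a library, so the counts of signs are not separate observations. The median deviation was -0.089, 0.26 and -0.18 in R1 +Met and -0.18, -0.39 and -0.25 in R1 −Met+Hcy. R1 −Met+Hcy replicate 1 thus lay level with R1 +Met replicate 3. PSMA5 had 699.7, 525 and 771 and 130.1, 184 and 246 CPM in HEK293T and 218, 408 and 162 and 245, 159.9 and 197 CPM in R1 (difference 1.46, edgeR adjusted p = 0.148), and PSMA3 a difference of 1.12. The 14 genes of the CCT chaperonin, which folds actin and tubulin, and its helper prefoldin had medians of -0.8004 and -0.31, 0 calls, and differences of 0.6951 for TCP1 and 1.05 for PFDN4. Among 15 tubulins, TUBA1B was called: it had 3457, 3061 and 3433 and 1067, 1342 and 1427 CPM in HEK293T and 2649, 3216 and 2472 and 2547, 2400 and 2518 CPM in R1 (difference 1.21, edgeR adjusted p = 0.027, lost without any 1 of 7 libraries). TUBA1C, an isotype that shares much of its sequence, had 1.05 (edgeR adjusted p = 0.0545). The unfolded protein response of the endoplasmic reticulum hardly moved in either line. Its median response was -0.048 in HEK293T and -0.064 in R1, with 0 genes called in either. Of its 23 genes, 19 had an interval of the difference within 1 with 11 libraries, 10 with 12, against 41.6% and 19.7% of all genes. XBP1, its transcription factor, was the 1 called for the difference (0.87 in HEK293T, -0.16 in R1, difference -1.03, edgeR adjusted p = 0.0206, lost without any 1 of 6 libraries), and the cochaperone DNAJB9 responded by 0.71 and 0.21.

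Genes of cholesterol and isoprenoid synthesis had mostly negative responses in both lines. Of 26 genes, 21 had a negative response in HEK293T (6 called) and 24 in R1 (0 called), the medians were -0.54 and -0.3968, and 16 of the 26 intervals of the difference lay within 1 with 11 libraries, 9 with 12. Over all genes 41.6% and 19.7% of the intervals did so. The list's median deviation was -0.59, -0.51 and -0.41 in HEK293T −Met+Hcy and -0.35, -0.36 and -0.4963 in R1 −Met+Hcy, all below the +Met libraries of either line. MVD, a decarboxylase of the pathway that was named here after its values were seen, responded by -1.29 and -0.64 (interval 0.011 to 1.28). Fatty acid synthesis had 0 of 12 genes called for the difference and 2 called lower in HEK293T, with FADS2, a desaturase, at -1.75 in HEK293T and -0.64 in R1, and FADS1, its neighbour, at -1.005 and -0.43.

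Glucose handling held 1 call in each direction among 22 genes. SLC2A14, a glucose transporter with a near-identical copy, SLC2A3, had 47.9, 50.4 and 41.2 and 280.4, 316 and 330.2 CPM in HEK293T and 26.5, 33.1 and 31.9 and 40.2, 24.3 and 33.2 CPM in R1, whose media overlapped. Its difference was -2.65 (standard error 0.278, 95% interval -3.26 to -2.05, edgeR adjusted p = 0.00204), and -2.64 (edgeR adjusted p = 0.014) with 12 libraries. PFKP, the platelet type of phosphofructokinase, had 57, 54.8 and 49.3 and 15.2, 15.5 and 11.3 CPM in HEK293T and 126, 89.7 and 123 and 65.5, 92.6 and 45.5 CPM in R1, a difference of 1.43 (edgeR adjusted p = 0.0251, lost without any 1 of 5 libraries). Nuclear genes of the respiratory chain had 35 of 36 positive differences with 11 libraries, 31 with 12. They move together within a library, so these are not separate observations. The median deviation was -0.12, 0.44 and -0.31 in R1 +Met and 0.16, -0.21 and -0.21 in R1 −Met+Hcy, so the R1 media overlapped. The 1 call was UQCRB (1.06, edgeR adjusted p = 0.0425, lost without any 1 of 10). ATP5F1C and ATP5MC3, subunits of ATP synthase, had differences of 0.8973 and 0.81. In R1 −Met+Hcy replicate 3 these 3 genes read 628, 831 and 144 CPM against 172 and 147, 363 and 274 and 366 and 281 CPM in replicates 1 and 2. Purine and pyrimidine synthesis had 0 calls of 22 with a median difference of 0.37: IMPDH2, the rate-limiting enzyme of GMP synthesis, responded by -1.31 in HEK293T and -0.58 in R1, and GMPS by -1.01 and -0.401. TFRC, the transferrin receptor of iron uptake, responded by -1.24 and -0.43 (edgeR adjusted p of the difference 0.0801), and CIAPIN1, an iron-sulfur protein, by -0.57 and -0.13.

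**Figure D5:**
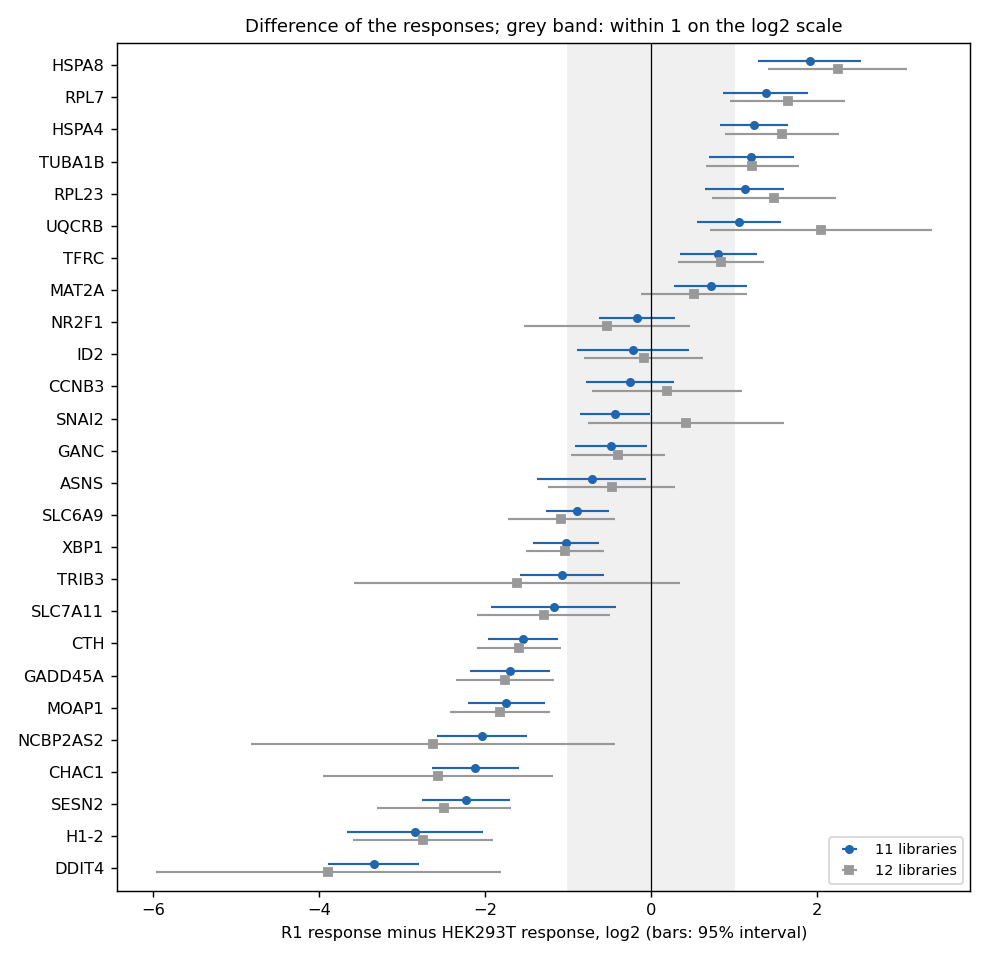
R1 response minus HEK293T response of 26 genes (horizontal axis, log2 scale) with 95% intervals, with 11 libraries (circles) and with 12 (squares); the grey band spans a difference of at most 1 in either direction. The intervals with 12 libraries are wider in most genes, as for DDIT4, NCBP2AS2 and TRIB3, and genes such as NR2F1, ID2 and GANC lie inside the band with 11 libraries.

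Some functions had few or no calls. Over all genes 1.08% were called lower and 0.305% higher for the difference with 11 libraries, so lists of this size would hold few in any case. The interval of the difference lay within 1 for 41.6% of all genes with 11 libraries and 19.7% with 12, shares not matched for level. PP2A, a protein phosphatase whose catalytic subunit is carboxy-methylated with SAM as donor, had 20 of 23 subunit and methylation genes with an interval of the difference within 1 with 11 libraries (87.0%), and 8 with 12. None was called in either line, and the list's median response was -0.011 in HEK293T and -0.16 in R1. PPP2CA, the catalytic subunit, and LCMT1, its methyltransferase, named here after their values were seen, responded by 0.49 and -0.32 in HEK293T and by 0.17 and -0.35 in R1. The largest HEK293T values were those of PPME1, the methylesterase (-0.87, -0.38 in R1, interval of the difference 0.0019 to 0.98), and PPP2R1A, the scaffold (-0.66, -0.22, -0.02 to 0.8971). Autophagy and lysosome genes had 19 of 28 intervals within 1, 11 with 12 libraries, and 0 calls in either line or for the difference. In that list ATG3 responded by -0.85 and -0.33 and WIPI1 by -0.92 and -0.63. Mitochondrial tRNA synthetases had 15 of 17 intervals within 1, 8 with 12 libraries, and 1 call in HEK293T, PARS2, the prolyl enzyme (1.45, 0.6002 in R1). The 21 NRF2 targets had 13 intervals within 1, 7 with 12 libraries, 0 calls for the difference and 1 in HEK293T, SLC7A11. Of 33 SAM-dependent methyltransferases, 1 was called higher and 3 lower in HEK293T, 0 in R1, and 1 for the difference, PRMT6, an arginine methyltransferase of histones, with 48.2, 40.3 and 45.4 and 111, 109 and 116 CPM in HEK293T and 50.03, 52.8 and 46.3 and 64.4, 51.3 and 14.6 CPM in R1 (-1.11, edgeR adjusted p = 0.0188, lost without any 1 of 3 libraries). PRMT1, the main enzyme of its kind, had -1.17 and -0.39 and was called in HEK293T and not for the difference.

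Genes that HEK293T changed and R1 changed by a like amount were few. By the rule that the interval lie within 1 and the R1 response have the same sign at an unadjusted p under 0.05, 15 went up and 5 down with 11 libraries, and the 10 with the largest HEK293T response include regulators of development and growth. NR2F1, an orphan nuclear receptor, had 36.6, 36.4 and 33.7 and 89.1, 77.2 and 67.9 CPM in HEK293T and 76.9, 62.4 and 72.3 and 148, 126 and 45.9 CPM in R1. Replicates 1 and 2 of R1 −Met+Hcy were above its +Met level and replicate 3 below, and the interval of the difference was -0.63 to 0.28. ID2, an inhibitor of helix-loop-helix factors, had 169.9, 155 and 183 and 325, 372 and 458 CPM against 83.7, 108 and 69.3 and 208, 131 and 216 CPM, with all R1 −Met+Hcy libraries above all of +Met (interval -0.8963 to 0.46). SNAI2, the repressor SLUG, had 95.9, 89.4 and 93.1 and 234, 252 and 265 CPM against 9.05, 11.2 and 10.8 and 22.02, 19.3 and 70.4 CPM, at a level several times lower in R1 (interval -0.85 to -0.017).

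CCNB3, a cyclin, responded by 1.03 and 0.78 (interval -0.78 to 0.28), GANC, a neutral alpha-glucosidase, by 1.16 and 0.67 (-0.92 to -0.053), GMEB1, a DNA-binding protein, by 1.26 and 0.75 (-0.98 to -0.035) and ALDH1B1, a mitochondrial aldehyde dehydrogenase, by 1.04 and 0.56 (-0.98 to 0.023). ZNF232, a zinc finger protein, had 1.11 and 0.77 and MON1A, a factor of vesicle traffic, 1.05 and 0.49 (interval -0.94 to -0.17). JMJD7-PLA2G4B, a readthrough gene that shares reads with its neighbours, was the one that went down, by -1.69 and -1.48. In 8 of these 10 genes the HEK293T response and the R1 response differ by less than 0.5 in the estimate, but with 11 libraries 0 of the 21 intervals lay within 0.5, so a difference of that size was not resolved. The intervals of SNAI2, GANC, GMEB1 and MON1A lay below 0.

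Among the genes called with opposite signs, 60 up in HEK293T and 9 down, 3 had an unadjusted p under 0.05 in each line. Both the called difference and the opposite sign use the R1 estimate. How often this cut passes such genes where R1 does not respond is therefore not known. The 3 are described here, and the cut by itself does not establish their R1 response. NCBP2AS2, a small protein gene beside the cap-binding gene NCBP2 (ENSG00000270170, chromosome 3 of GRCh38 from 196942674 to 196943543), had 7.33, 6.14 and 7.35 CPM in HEK293T +Met and 14.98, 16.8 and 15.3 CPM in −Met+Hcy. In R1 it had 5.03, 5.54 and 4.44 CPM and then 2.56, 2.95 and 0 CPM. Each line's media were apart, up in HEK293T and down in R1. The difference was -2.04 (standard error 0.248, 95% interval -2.58 to -1.5, edgeR adjusted p = 0.00285) and stood with any 1 further library left out. Its transcript has 59.9% GC and replicate 3 reads 0, and with 12 libraries the difference was -2.63 and not called (edgeR adjusted p = 0.438). MAFA, a transcription factor of the insulin gene, had 1.21, 0.699 and 0.808 and 2.71, 1.81 and 2.52 CPM in HEK293T and 5.35, 4.92 and 5.37 and 3.47, 2.77 and 1.89 CPM in R1, up and down again without overlap (-2.1, edgeR adjusted p = 0.0251, lost without any 1 of 7 libraries). STUM had 23.2, 16.4 and 16.9 and 27.7, 28.4 and 29.6 CPM in HEK293T and 33.2, 31.2 and 26.7 and 18.7, 23.6 and 0.687 CPM in R1 (-1.13, edgeR adjusted p = 0.0411, lost without any 1 of 9). The levels of the lines drew together in −Met+Hcy for MAFA and apart for NCBP2AS2.

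Other genes with a large called difference belong to no list. DHRS2, a short-chain dehydrogenase, had 7.18, 8.62 and 6.69 and 129, 131 and 91.7 CPM in HEK293T and 3.28, 2.23 and 2.36 and 3.08, 3.18 and 0 CPM in R1, a difference of -3.72 (standard error 0.311, 95% interval -4.396 to -3.04, edgeR adjusted p = 0.000228). TSC22D3, the glucocorticoid-induced leucine zipper GILZ, had 6.43, 6.06 and 6.39 and 45.7, 51.9 and 70.5 CPM in HEK293T, and in R1 126, 161 and 109.7 and 238, 166 and 40.5 CPM, above HEK293T in all libraries but replicate 3 in −Met+Hcy (difference -2.54, edgeR adjusted p = 0.00285). RASL12, a small GTPase, had 2.87, 5.83 and 3.97 and 24.9, 31.7 and 29.7 CPM in HEK293T and 2.96, 3.06 and 3.58 and 2.56, 2.65 and 0.859 CPM in R1 (-3.06, edgeR adjusted p = 0.00208). MYOM2, a myomesin of striated muscle, had a difference of -3.897 with 11 libraries and -3.82 with 12 (edgeR adjusted p = 0.00285 and 0.0294), the largest of the 8 called with 12. HSF2BP, a meiotic partner of BRCA2, CCT6B, a testis form of a chaperonin subunit, and UFSP1, a protease of the modifier UFM1, had -3.17, -2.796 and -2.85 (edgeR adjusted p = 0.00394, 0.00285 and 0.00802). CCR10, DNAH3 and PJVK, all under 10 CPM in HEK293T, had -3.105, -3.52 and -2.56, and were lost without any 1 of 6 to 8 further libraries.

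In the other direction, ANKMY1, an ankyrin repeat protein, had 5.44, 8.16 and 8.01 and 0.71, 1.19 and 1.19 CPM in HEK293T and 8.1, 7.14 and 7.88 and 5.701, 4.71 and 9.51 CPM in R1 (2.23, standard error 0.347, 95% interval 1.47 to 2.98, edgeR adjusted p = 0.00968, lost without 1 further library). SCAMP4, a secretory carrier membrane protein, had 34.2, 31.9 and 35.05 and 6.97, 5.54 and 6.03 CPM against 43.7, 36.2 and 38.6 and 21.03, 35.4 and 2.69 CPM (1.97, edgeR adjusted p = 0.00485), with replicate 3 below the HEK293T group. OSBPL5, an oxysterol-binding protein, and PTGR2, a prostaglandin reductase, had 1.75 and 1.52 (edgeR adjusted p = 0.01 and 0.00968) and were lost without R1 −Met+Hcy replicate 2 only. MLXIPL, the glucose sensor ChREBP, had 7.63, 7.54 and 7.495 and 2.97, 1.47 and 2.19 CPM in HEK293T and 9.53, 8.23 and 9.74 and 8.71, 9.61 and 4.41 CPM in R1 (1.78, edgeR adjusted p = 0.0188). The other named genes, PDE9A, NKD2, NBEAL2, RHPN1, SLC6A6, TCIRG1 and the mitochondrial gene MT-ND6, had differences from 1.55 to 1.995, and each was lost without any 1 of 7 to 9 further libraries. MT-ND6 lies on the strand opposite to MT-ND5, and opposite-strand reads over it would count as its own unless strand was kept.

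Of the 64 named genes called with 11 libraries, 22 were called again whichever of the 11 libraries was left out as well, and 40 were lost without R1 −Met+Hcy replicate 2, which leaves that group with 1 library whose spread is taken from the other groups. Each of the 8 genes called with 12 libraries is among the 22. With 12 libraries, leaving out any library other than R1 −Met+Hcy replicate 3 left 0 to 3 entries called.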

How the data were processed

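RNA was sequenced from 12 libraries, 3 in each of 4 groups. Per the labels the authors quantified reads with kallisto 0.48.0 against GRCh38, and the deposited table holds estimated counts summed per Ensembl gene, given as whole numbers, for 23500 genes. The R1 libraries carry R1 in their titles and HEK293T in a further label field, and the titles were followed. Genes with a summed count of at least 10 were kept. One model with 4 group means was fitted with edgeR 4.0.16 (R 4.3.3, quasi-likelihood test, TMM scaling), with all 12 libraries (8 residual degrees of freedom) and without R1 −Met+Hcy replicate 3 (7). The difference of the responses was tested as 1 contrast over all genes, with Benjamini-Hochberg adjustment, and called at an adjusted p under 0.05 and an absolute log2 difference over 1. Intervals are 95%. Gene positions are from GENCODE, GRCh38.

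Named were all genes called with 12 libraries, the 15 largest differences per direction called with 11 (at least 5 CPM in a group), called members of 37 gene lists, called genes with opposite signs, the 10 most responsive alike genes, and per list the 2 largest HEK293T responses plus members called in R1. Members and lists were chosen with earlier results of these data known. Some genes that meet this rule are not reported here, and counts include them. Genes with near-identical copies are uncertain, and 1066 entries had an identical entry of the same symbol. Alternatives were DESeq2 1.42.0, other scalings and filters, a replicate block, removal of GC and length trends (GC known for 92.4% of tested genes), and each library left out. On simulated data of 16877 genes for the difference with 11 libraries, 82 of 100 genes changed by 1.5 and 100 of 100 changed by 2.5 on the log2 scale were called. So were 14 unchanged genes. The simulation gave every gene the same dispersion, had no GC trend, and changed only genes with a mean of at least 100 counts. These rates therefore do not carry over to genes of low counts or to the spread of the real libraries. Samples with the same number were checked for pairing: 6 of 18 same-numbered pairs had a correlation over 0.1. Totals of 12664158 to 18771349 counts set the precision, and floors cover counting error only.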

Additional observations from a re-analysis of the deposited data

Results flagged for a closer look

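The response to −Met+Hcy differed between the lines by the test of the difference itself in 10 entries with 12 libraries, all lower in R1, and in 184 lower and 52 higher with 11. With 12 libraries the log2 differences were -1.60 for CTH, -1.765 for GADD45A, -2.75 for H1-2, -1.825 for MOAP1, -3.82 for MYOM2, -2.49 for SESN2 and -2.64 for SLC2A14. With 11 libraries the estimates of the lines had opposite signs, with an unadjusted p under 0.05 in each, for MAFA (-2.10), NCBP2AS2 (-2.04) and STUM (-1.13). Called genes with opposite signs numbered 60 up and 9 down in HEK293T. Their choice used the R1 estimate, so the cut by itself does not establish an R1 response of these 3.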

How the results depend on the processing

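The number of called differences depended on the fit. With 12 libraries, 10 were lower and 0 higher, against 123 and 67 with DESeq2, 64 and 30 with the GC trend removed, 113 and 66 with GC and length trends removed, and 0 and 0 with a replicate block. Lower calls numbered 6 with no filter and 4 with 1 entry per set of identical copies. With 1 library left out they ranged from 0 to 184 lower and from 0 to 52 higher, the highest without R1 −Met+Hcy replicate 3. With 11 libraries, 184 were lower and 52 higher, against 319 and 169 with DESeq2, 327 and 144 with GC and length trends removed, and 40 and 7 with a replicate block, while 99 were higher with the GC trend removed. With 1 further library left out they ranged from 32 to 302 lower and from 6 to 259 higher, lowest without R1 −Met+Hcy replicate 2 and highest without R1 +Met replicate 2. The causes were not tested. The labels give same-numbered libraries only a number in common. Correlations of same-numbered libraries ran from -0.718 to 0.595 and those of differently numbered ones from -0.763 to 0.766. With such a spread they cannot decide whether same-numbered libraries were paired. Genes alike within 1 numbered 9 with 12 libraries and 21 with 11, and 1 and 0 within 0.5.

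Among differences that were not called, some turned sign. With 12 libraries these were CCNB3 (-0.014), DNAJB9 (-0.37) and SNAI2 (-0.019) with the GC trend removed, DNAJB9 (-0.51) and SNAI2 (-0.18) with GC and length trends removed, and NUPR1 (-0.014) and VARS1 (-0.12) with the replicate block. With 11 it was NUPR1 with DESeq2 (0.019). Leaving out 1 library, the ranges with 12 libraries were -0.49 to 0.61 for ANKRD1, -0.25 to 0.40 for CCNB3, -0.093 to 0.44 for CIAPIN1, -0.51 to 0.48 for DNAJB9, -0.23 to 0.10 for ID2, -1.06 to 0.21 for JMJD7-PLA2G4B, -0.012 to 0.65 for MVD, -0.38 to 2.13 for NUPR1, -0.19 to 0.44 for PPP2R1A, -0.20 to 0.81 for SARS2, -0.44 to 0.73 for SNAI2 and -0.57 to 0.72 for VARS1. With 11 they were -0.98 to 0.21 for ANKRD1, -0.59 to 0.076 for ID2, -0.054 to 0.43 for JMJD7-PLA2G4B, -1.06 to 1.45 for NUPR1 and -0.12 to 0.46 for WIPI1.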
